A study of Mus musculus with 12 samples.

Results

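RNA was profiled in mouse female germline stem cells (FGSCs) labelled as Usp7 overexpression, in 3 libraries, and in FGSCs labelled as its control, in 3 libraries. FGSCs are cultured germ cells from the ovary, here of strain C57BL/6. A second experiment, with 3 libraries of Usp7 knockdown cells and 3 of its own control, is used only for comparison. The labels do not give the promoter, the tag, the control construct, the time after transfer of the construct, the passage or the age of the mice. They do not say whether the replicates were separate cultures, and the p-values therefore reflect the variation among 3 libraries per group, whatever its source.

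The overexpression comparison is the 648 transcripts (647 gene symbols) that the authors listed for these 6 libraries, beside 3156 listed for the knockdown experiment. All 648 are members, and all had been selected by the authors as changed. Values are normalized counts, which are reads per transcript divided by 1 size factor per library. Usp7 is not among the transcripts used here, so the labels could not be checked against its level. None of the 11 markers on a list for FGSCs was in the table either, and the cell type could not be checked.

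USP7 is a protease that takes ubiquitin off other proteins, among them the p53 regulator MDM2, and it is part of a noncanonical Polycomb complex with BCOR. Germ cells pass through meiosis with proteins that exist for that purpose, such as the synaptonemal complex that holds paired chromosomes and the PIWI proteins that silence transposons with small RNAs. In the male line, spermatids then build an acrosome and a flagellum and, at the end, exchange histones for transition proteins and protamines. Many of these spermatid genes are named for sperm, and their RNA in cultured female cells is described here as measured.

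More transcripts were higher than lower. In the overexpression libraries 415 of 648 listed transcripts were higher and 233 lower than in the controls. The test was limma on log2(normalized count + 1), for transcripts with a value of at least 10 in at least 3 libraries, with Benjamini-Hochberg (BH) adjustment over all of these. It covered 613 transcripts and called 100% of them at an adjusted p under 0.05, 400 higher (65.3%) and 213 lower (34.7%). The list is the authors' own selection on these libraries, so a call is not independent evidence and the members' counts below show direction and size only. The libraries of the groups did not overlap for 414 transcripts that were higher (63.9%) and 233 that were lower (36%). Of the 35 transcripts too low to test, 15 were higher and 20 lower. Below, a value with ± in parentheses after a gene is its log2 fold, overexpression over control, with its standard error (SE, n = 3 per group).

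Levels are given for each direction, and splitting by direction itself sets which group is higher. Among transcripts called higher, the median of the group means was 83.9 normalized counts in the overexpression libraries and 19.5 in the controls. Among transcripts called lower, these medians were 29.7 in the overexpression libraries and 99.5 in the controls. Each median was taken on its own, so the values of a pair need not belong to the same transcript. The median log2 fold was 1.98 among the higher calls, with 196 of 400 beyond 2, and -1.61 among the lower calls, with 44 of 213 beyond 3 in size. Folds depended on scaling: with size factors set by the median of ratios over the listed transcripts, folds moved by a median of -1.19, and 82 transcripts called higher went below 0. That scaling assumes that most listed transcripts are unchanged, which a list selected as changed does not meet. It moved most folds by a similar amount (percentiles 5 and 95 of the shift: -1.22 and -0.891). A fold that stays positive under it was thus mainly larger than that shift, and no transcript called lower went above 0. Each group below states where this scaling turns a direction.

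The listed transcripts took up 211043, 120012 and 114249 reads in overexpression replicates 1 to 3, and 127282, 121899 and 150991 in control replicates 1 to 3, as estimated from the value of 1 read in each column. That value is less sure in overexpression replicate 1, where 94 values lie at up to 20 reads, and in control replicate 1, where it is 1.01. The total depth of the libraries is unknown, since the table holds only a part of each. Of 495 transcripts with a mean of at least 20, 17 in overexpression replicate 2 lay over 1 log2 unit from both other libraries of the group. The same count was 13 for overexpression replicate 3, 12 for control replicate 1, and between 3 and 7 for the other 3 libraries.

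Genes of the PIWI pathway were higher. Of 25 genes on the PIWI list, 5 were in the table and all 5 were higher, with a median log2 fold of 3.18 beside 1.98 over the higher calls and 1.31 over all tested transcripts. The share higher over all tested transcripts was 65.3%. Of the 5, 3 lay above the median of the higher calls, and Rnf17 and Mael lay below it. Piwil1, a PIWI protein of germ cells (transcript NM_021311, protein-coding, gene at chr5:128736071-128755474, GRCm38), had 667, 528 and 929 normalized counts in the overexpression libraries, against 49.3, 62.1 and 62.0 in the controls. The groups were far apart, and overexpression replicate 3 was the highest library. Its log2 fold was 3.56 ± 0.21 (SE, n = 3 per group, limma, BH-adjusted p = 4.6e-07).

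Tdrd9, an RNA helicase that works with PIWI proteins, had 152, 117 and 138 normalized counts in the overexpression libraries, against 11.1, 12.2 and 13.9 in the controls (log2 fold 3.35 ± 0.24 SE). Mov10l1, the helicase that starts PIWI-interacting RNA production, had 122, 88.5 and 114 normalized counts in the overexpression libraries, against 14.1, 9.97 and 9.25 in the controls (3.18 ± 0.27). Mael, which acts in transposon silencing, had 217, 158 and 204 normalized counts in the overexpression libraries, against 59.4, 49.9 and 64.7 in the controls (1.71 ± 0.20). For these 3 genes every overexpression library was above every control library, as it was for 414 of the 415 listed transcripts that were higher. Rnf17, a Tudor-domain protein of germ cell granules, rose as well, with 28.6, 32.8 and 20.4 normalized counts in the overexpression libraries, against 4.02, 6.65 and 9.25 in the controls (1.92 ± 0.36). All 5 kept a positive fold under median-of-ratios scaling, between 0.50 (Mael) and 2.35 (Piwil1).

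The synaptonemal complex and cohesin genes moved the same way. Of 11 synaptonemal complex genes, 4 were listed and 4 were higher (median log2 fold 2.21), beside 65.3% higher over all tested transcripts. Sycp2, a part of its lateral element, had 82.0, 77.6 and 69.2 normalized counts in the overexpression libraries, against 10.1, 11.1 and 10.2 in the controls (2.75 ± 0.25 SE). Syce1, of the central element, had 148, 107 and 139.8 normalized counts in the overexpression libraries, against 33.2, 17.7 and 21.3 in the controls (2.44 ± 0.27). Sycp3, the other lateral element protein, had 30.6, 29.5 and 20.4 normalized counts in the overexpression libraries, against 10.1, 4.43 and 4.62 in the controls (1.98 ± 0.37). Sycp1, the transverse filament, changed least, with 57.2, 60.1 and 55.7 normalized counts in the overexpression libraries, against 25.2, 22.2 and 26.8 in the controls (1.19 ± 0.23), and its fold was 0.00 under median-of-ratios scaling. The spread within each group was small for Sycp1 and Sycp2 and larger for Sycp3, where control replicate 1 stood above the other controls.

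Of 8 meiotic cohesin genes, 2 were listed and both rose, beside 65.3% higher over all tested transcripts. Stag3, the meiotic cohesin subunit, had 214, 161 and 198 normalized counts in the overexpression libraries, against 34.2, 46.5 and 37.9 in the controls (2.24 ± 0.21 SE), and Smc1b, its ring partner, had 70.3, 67.8 and 72.0 normalized counts in the overexpression libraries, against 13.1, 11.1 and 12.9 in the controls (2.41 ± 0.25). Meioc, which keeps cells in meiotic prophase, was the single member of a 13-gene list of meiotic entry in the table, at 27.3, 16.4 and 29.9 in the overexpression libraries and 3.02, 4.43 and 2.77 in the controls (2.51 ± 0.35). Of 23 meiotic recombination genes and 21 oocyte genes, 0 were in the table and have no value here.

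Promoters of PIWI and synaptonemal genes that hold a short sequence, the E-box, are shown, while those of Sycp2 and Syce1 do not hold it and are not printed. Windows of 300 bases, 250 before and 50 after a start of the gene in that annotation, came from RefSeq (GRCm38.p6), and 4 of the 5 PIWI genes and all 4 synaptonemal genes had one. The E-box CACGTG, which MAX and its partners bind and which reads the same on both strands, is in capitals. Coordinates and strands are chr5:128735996-128736295 (plus) for Piwil1, chr12:111971309-111971608 (plus) for Tdrd9, chr15:88982744-88983043 (plus) for Mov10l1, chr1:166238695-166238994 (minus) for Mael, chr3:102936051-102936350 (minus) for Sycp1 and chr10:88459337-88459636 (plus) for Sycp3.
Piwil1: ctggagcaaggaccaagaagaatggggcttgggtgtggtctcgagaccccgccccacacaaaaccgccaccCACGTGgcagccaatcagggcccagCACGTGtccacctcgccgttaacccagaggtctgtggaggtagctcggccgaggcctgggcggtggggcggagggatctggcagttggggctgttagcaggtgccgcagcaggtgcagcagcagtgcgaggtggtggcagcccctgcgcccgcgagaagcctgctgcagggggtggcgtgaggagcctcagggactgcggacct
Tdrd9: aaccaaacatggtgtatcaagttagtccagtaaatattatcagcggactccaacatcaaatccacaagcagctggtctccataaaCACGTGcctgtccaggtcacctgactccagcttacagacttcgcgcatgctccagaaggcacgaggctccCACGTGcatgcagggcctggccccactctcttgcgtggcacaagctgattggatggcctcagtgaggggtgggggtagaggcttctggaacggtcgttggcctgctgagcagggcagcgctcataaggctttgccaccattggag
Mov10l1: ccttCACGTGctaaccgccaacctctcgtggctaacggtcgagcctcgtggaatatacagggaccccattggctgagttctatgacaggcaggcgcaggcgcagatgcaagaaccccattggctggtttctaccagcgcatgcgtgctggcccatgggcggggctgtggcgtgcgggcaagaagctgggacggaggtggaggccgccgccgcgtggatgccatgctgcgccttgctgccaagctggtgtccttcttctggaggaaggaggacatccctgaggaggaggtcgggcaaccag
Mael: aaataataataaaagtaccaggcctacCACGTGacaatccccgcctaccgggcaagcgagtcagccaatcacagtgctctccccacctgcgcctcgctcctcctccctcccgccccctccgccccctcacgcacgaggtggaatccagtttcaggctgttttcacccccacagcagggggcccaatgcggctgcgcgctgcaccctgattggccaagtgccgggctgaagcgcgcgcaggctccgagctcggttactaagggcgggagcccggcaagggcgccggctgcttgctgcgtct
Sycp1: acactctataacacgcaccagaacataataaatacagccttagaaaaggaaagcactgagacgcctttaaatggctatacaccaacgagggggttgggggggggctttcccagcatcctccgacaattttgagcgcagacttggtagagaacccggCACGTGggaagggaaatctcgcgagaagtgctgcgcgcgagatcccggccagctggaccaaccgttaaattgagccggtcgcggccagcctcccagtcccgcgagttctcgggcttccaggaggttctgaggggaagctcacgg
Sycp3: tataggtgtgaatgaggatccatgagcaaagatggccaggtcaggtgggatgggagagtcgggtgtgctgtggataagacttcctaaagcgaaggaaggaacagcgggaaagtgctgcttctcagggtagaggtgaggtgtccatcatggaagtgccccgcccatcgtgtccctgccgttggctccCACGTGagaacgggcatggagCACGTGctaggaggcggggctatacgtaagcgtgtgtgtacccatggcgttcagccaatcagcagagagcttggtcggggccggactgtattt

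An E-box stood in 4 of 4 PIWI windows, in 2 places in Piwil1 (first bases at -179 and -154 from the start) and 2 in Tdrd9 (-165 and -95). It stood in 2 of 4 synaptonemal windows, in 2 places in Sycp3 (-64 and -43) and once in Sycp1 (-94). These positions count from the start used for the window. In Piwil1, Tdrd9 and Mov10l1 that start lies 175, 71 and 103 bases downstream of the outermost start of the gene, from which the first bases of the Piwil1 matches are at distances of -4 and 21 bases, so that the second falls inside the gene. Over all genes with a window, it was in 45 of 315 that were listed higher (14.3%), 8 of 166 listed lower (4.82%) and 1559 of 17491 protein-coding genes (8.91%). The windows were also searched for an element bound by ATF4, the cyclic AMP response element, an E2F core and the TATA box. The ATF4 element was in 0 of 7 windows of ATF4 signalling genes, described below, and in 162 of all 17491 (0.926%). For the E2F core the shares were 28.9% of listed higher, 20.5% of listed lower and 28.4% of all windows. A match is a description of these letters, and no binding was measured.

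The genes that replace histones in spermatids went the other way. Of 18 genes on the list of spermatid chromatin, 9 were in the table, 8 of them tested, with 7 lower and 1 higher (median log2 fold -4.77). The share lower over all tested transcripts was 34.7%. Prm2, a protamine that packs sperm DNA (transcript NM_008933, protein-coding, gene at chr16:10791377-10792105), had 1.95, 4.37 and 4.07 normalized counts in the overexpression libraries, against 712, 757 and 811 in the controls. Prm1, the other protamine of the sperm nucleus, had 3.90, 2.19 and 5.43 normalized counts in the overexpression libraries, against 339, 369 and 358 in the controls. Both were nearly absent from every overexpression library, and their controls varied little. The log2 folds were -7.46 ± 0.26 for Prm2 and -6.26 ± 0.29 for Prm1 (SE, n = 3 per group; limma, BH-adjusted p = 9.7e-09 and 6.4e-08).

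Tnp2, a transition protein that sits on DNA before the protamines, had 1.30, 0 and 6.79 normalized counts in the overexpression libraries, against 323, 379 and 401 in the controls (-7.13 ± 0.58 SE). Tnp1, the other transition protein, had 0.65, 0 and 5.43 normalized counts in the overexpression libraries, against 101, 139 and 139.7 in the controls (-5.84 ± 0.57). Overexpression replicate 3 held most of what was left of both: without it the log2 fold was -7.92 for Tnp2 and -6.61 for Tnp1, and without overexpression replicate 2 that of Tnp2 was -6.44. H1fnt, a spermatid linker histone, had 1.30, 4.37 and 5.43 normalized counts in the overexpression libraries, against 32.2, 76.5 and 65.7 in the controls (-3.69 ± 0.46), and Hils1, another one, had 13.7, 14.2 and 13.6 normalized counts in the overexpression libraries, against 37.2, 46.5 and 50.9 in the controls (-1.62 ± 0.27). Prm3 was at 5.20, 6.56 and 4.07 in the overexpression libraries and 16.1, 36.6 and 32.4 in the controls (-2.16 ± 0.38). H2al2a, a short histone variant that opens nucleosomes for transition proteins, had 0 reads in all 3 overexpression libraries and 6.04, 6.65 and 10.2 in the controls, too few to test. With 3 reads over the group as a floor, it was at least 8.10-fold lower. The exception was Brdt, a bromodomain protein of meiotic and early spermatid chromatin, with 75.5, 61.2 and 96.4 normalized counts in the overexpression libraries, against 17.1, 13.3 and 15.7 in the controls (2.25 ± 0.27).

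Late spermatid structure genes, a list of 34 chosen after values had been seen, were lower as well. Their shared direction may come from that choice and is given as a description. Sperm tail genes that rose, such as Odf4, and the acrosome genes stand on other lists below. In the table were 20, of which 19 were tested, all lower, with a median log2 fold of -2.73, beside 34.7% lower over all tested transcripts. Added together, their counts came to 187, 172 and 265 in the overexpression libraries, against 1026, 1165 and 1200.5 in control replicates 1 to 3. Odf1, an outer dense fibre protein of the tail, had 17.6, 16.4 and 17.6 normalized counts in the overexpression libraries, against 96.6, 144 and 122 in the controls (-2.73 ± 0.24 SE). Smcp, of the mitochondrial sheath, had 16.9, 12.0 and 19.01 normalized counts in the overexpression libraries, against 147, 172 and 169 in the controls (-3.29 ± 0.24), and Oaz3, an antizyme of spermatids, had 28.6, 24.0 and 28.5 normalized counts in the overexpression libraries, against 121, 122 and 155 in the controls (-2.25 ± 0.21). Spem1, which acts in the shedding of spermatid cytoplasm, and its neighbour on chromosome 11, Spem2, had 1.95, 0 and 2.72 and 1.30, 1.09 and 1.36 in the overexpression libraries, against 52.3, 37.7 and 48.1 and 64.4, 57.6 and 62.0 in the controls. The smallest change of the list was that of Akap3, a fibrous sheath protein (-0.94 ± 0.22).

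Promoters of the protamine genes are shown to set their CpG content beside that of the E-box genes above. They come from the same RefSeq table, at chr16:10796774-10797073 (minus) for Prm1 and chr16:10792056-10792355 (minus) for Prm2, with each CG in capitals.
Prm1: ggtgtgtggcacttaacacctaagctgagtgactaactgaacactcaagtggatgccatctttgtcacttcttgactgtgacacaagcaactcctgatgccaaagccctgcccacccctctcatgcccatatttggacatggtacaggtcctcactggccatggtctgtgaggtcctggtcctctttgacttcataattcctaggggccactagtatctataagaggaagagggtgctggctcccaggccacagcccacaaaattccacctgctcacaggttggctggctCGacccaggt
Prm2: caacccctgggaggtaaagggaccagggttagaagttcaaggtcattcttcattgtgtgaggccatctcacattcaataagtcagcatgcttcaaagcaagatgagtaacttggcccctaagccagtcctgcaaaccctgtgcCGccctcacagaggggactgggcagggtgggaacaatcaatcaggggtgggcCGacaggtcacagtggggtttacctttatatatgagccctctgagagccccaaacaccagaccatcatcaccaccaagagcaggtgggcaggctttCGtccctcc

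Prm1 held 1 CG, after the start, and Prm2 held 3. The ratio of observed to expected CpG was 0.0487 and 0.137 in these windows, and between 0.43 (Tdrd9) and 0.874 (Sycp1) in the 6 windows printed before. The median ratio was 0.645 for 315 listed higher genes, 0.382 for 166 listed lower genes and 0.609 for 17491 protein-coding genes. Among 15 late spermatid genes with a window, from the list chosen after values had been seen, it was 0.118. Of these, 93.3% were under 0.6, compared with 49.1% of all windows.

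**Figure D1:**
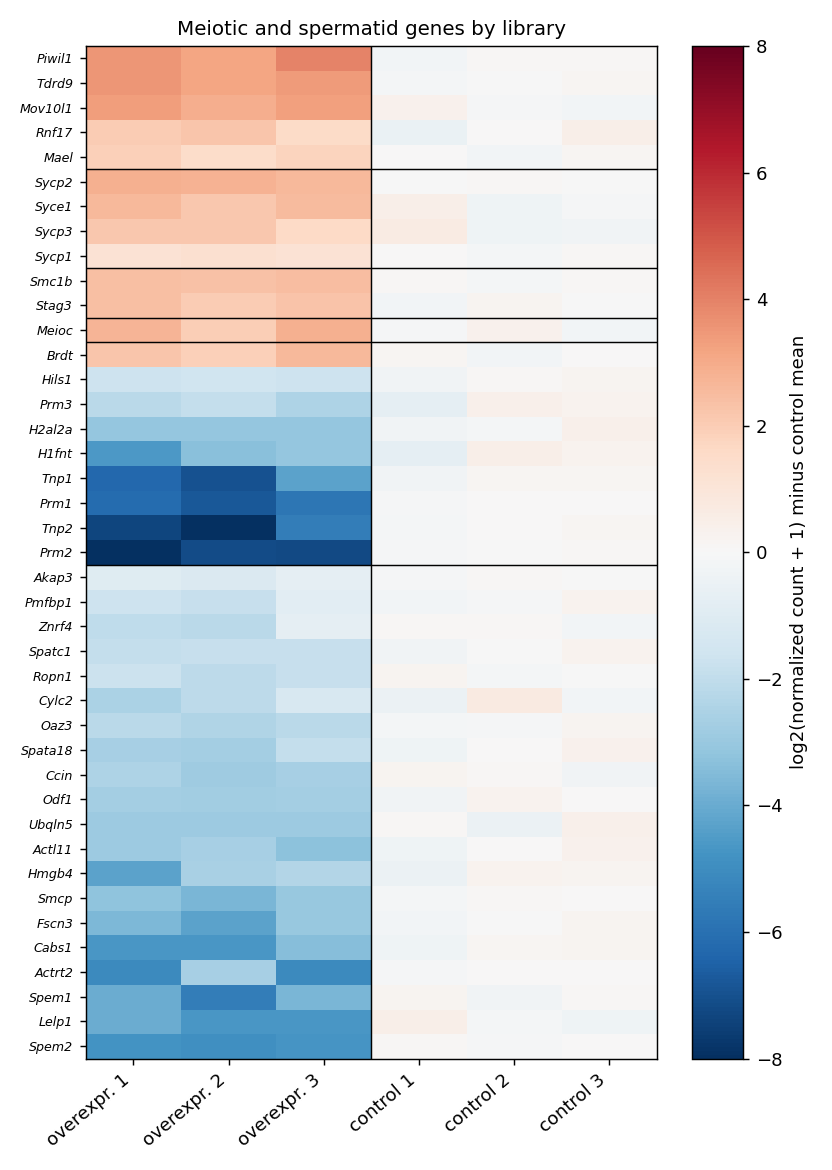
Log2(normalized count + 1) of each listed PIWI, synaptonemal, cohesin, meiotic entry, spermatid chromatin and late spermatid gene (rows, in that order between black lines) in each library (columns, overexpression left, control right), minus the mean of the 3 controls. Red is higher and blue lower: all meiotic genes and Brdt are red in the 3 overexpression libraries, and the other spermatid genes are blue, deepest for Prm2, Tnp2 and Prm1.

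Genes of the flagellum and cilia formed a large group in the table. All 9 listed dynein heavy chains, the motors of the axoneme, were higher (65.3% over all tested transcripts), with a median log2 fold of 2.39. Dnah8, an outer arm motor of sperm, had 2041, 1438 and 1982 normalized counts in the overexpression libraries, against 365, 399 and 454 in the controls (2.15 ± 0.17 SE, limma, BH-adjusted p = 1.7e-06). Dnah17, another outer arm motor of sperm, had 993, 777 and 1230.1 normalized counts in the overexpression libraries, against 178, 191 and 191 in the controls (2.39 ± 0.18). Dnah1, of the inner arms, had 430.0, 355 and 449 normalized counts in the overexpression libraries, against 73.4, 44.3 and 75.8 in the controls (2.69 ± 0.22). The largest fold was that of Dnah6 (3.08 ± 0.23) and the smallest that of Dnah10 (1.47 ± 0.17). All 9 stayed above 0 under median-of-ratios scaling, and 8 of them were called. Dnah7a, Dnah7b and Dnah7c (2.66, 2.18 and 2.81) are close copies of each other, and reads may be split among them, which leaves each value uncertain.

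Of 51 other axoneme and flagellum genes, 41 were higher and 10 lower (median 1.75), beside 65.3% higher over all tested transcripts. Under median-of-ratios scaling, which could fit 49 of them, 34 were above 0 and 15 below, with 23 called higher and 11 lower. Cfap65, a protein of the sperm tail, had 358, 286 and 447 normalized counts in the overexpression libraries, against 30.2, 34.4 and 41.6 in the controls (3.31 ± 0.21 SE). Hydin, of the central pair, had 239, 169 and 223 normalized counts in the overexpression libraries, against 33.2, 35.5 and 22.2 in the controls (2.77 ± 0.24), and Spag17, of the same structure, had 279.7, 239 and 293 normalized counts in the overexpression libraries, against 38.2, 42.1 and 65.7 in the controls (2.49 ± 0.22). Of the radial spoke genes, Rsph6a (3.29 ± 0.48), Rsph3a (1.46 ± 0.26) and Rsph9 (1.39 ± 0.30) rose. The assembly factors Dnaaf1 (2.40 ± 0.20), Zmynd10 (2.74 ± 0.33) and Lrrc6 (1.83 ± 0.30) rose as well. So did Ccdc39 (2.30 ± 0.29) and Ccdc40 (1.21 ± 0.23, and -0.01 under median-of-ratios scaling).

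Parts of CatSper, the calcium channel of the sperm tail, also rose, namely Catsper2 (1.68 ± 0.33 SE), Catsperg1 (2.44 ± 0.23), Catsperg2 (3.03 ± 0.41) and Catsperz (1.97 ± 0.21). The 10 that fell included Odf1, Akap3, Ropn1 and Spata18, which are also on the late spermatid list, while the related Odf4 (1.79 ± 0.33), Ropn1l (1.48 ± 0.18), Spata4 (1.54 ± 0.21) and Spata33 (1.48 ± 0.22) rose. Spata31d1b had 0 reads in all 3 overexpression libraries and 24.1, 22.2 and 23.1 in the controls, at least 24.6-fold lower by the floor of 3 reads. Ift140, which carries cargo inside cilia, was the weakest increase, with 1010.2, 876 and 1058 normalized counts in the overexpression libraries, against 583, 702 and 678 in the controls (0.58 ± 0.15), and it was -0.64 under median-of-ratios scaling.

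Germ cell copies of housekeeping genes showed the same split. Of 42 listed copies, 19 were in the table, 16 higher and 3 lower (median log2 fold 2.15), beside 65.3% higher over all tested transcripts. Ldhc, the lactate dehydrogenase of germ cells, had 779.9, 631 and 669 normalized counts in the overexpression libraries, against 174, 182 and 209 in the controls (1.87 ± 0.15 SE). Pabpc6 and Pabpc2, testis forms of the poly(A)-binding protein, had 222, 199 and 205 and 215, 198 and 248 in the overexpression libraries, against 19.12, 31.0 and 28.7 and 39.2, 43.2 and 55.5 in the controls. Rpl10l, a ribosomal protein copy used in meiosis (2.49 ± 0.35), Cox8c, a subunit of cytochrome oxidase (2.80 ± 0.46), and Pdha2, of pyruvate dehydrogenase (2.15 ± 0.33), rose too. The alpha tubulins Tuba3a (3.23 ± 0.20) and Tuba3b (3.03 ± 0.22) are near-identical and their values uncertain. Actrt2 (-4.29 ± 0.58), an actin-related protein of the sperm head (-5.10 without overexpression replicate 2), Ubl4b (-2.80 ± 0.33) and Hspa1l (-1.48 ± 0.20) fell. Gykl1, a glycerol kinase copy, was 1.08 and -0.11 under median-of-ratios scaling.

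Acrosome and sperm surface genes were a list of 28 chosen after values had been seen. Of 16 in the table and 15 tested, 13 rose and 2 fell (median 2.24), beside 65.3% higher over all tested transcripts. Prss55, too low to test, was lower as well. Tex101, a surface protein of germ cells that is also on a list of germline stem cell genes, had 131, 90.7 and 136 normalized counts in the overexpression libraries, against 3.02, 5.54 and 8.32 in the controls. Its log2 fold was 4.24 ± 0.35 SE, on few control reads. Adam2, a sperm surface protein, had 109.9, 78.7 and 89.6 normalized counts in the overexpression libraries, against 14.1, 17.7 and 14.8 in the controls (2.50 ± 0.25). Dkkl1, of the acrosome, had 335, 322 and 499.6 normalized counts in the overexpression libraries, against 108, 99.7 and 101 in the controls (1.87 ± 0.19). Spaca6 (-1.03 ± 0.21), needed for sperm and egg fusion, and Spaca9 (-1.31 ± 0.23) fell. Hyal2, a hyaluronidase also made in many other tissues, was 0.75, and -0.47 under median-of-ratios scaling.

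**Figure D2:**
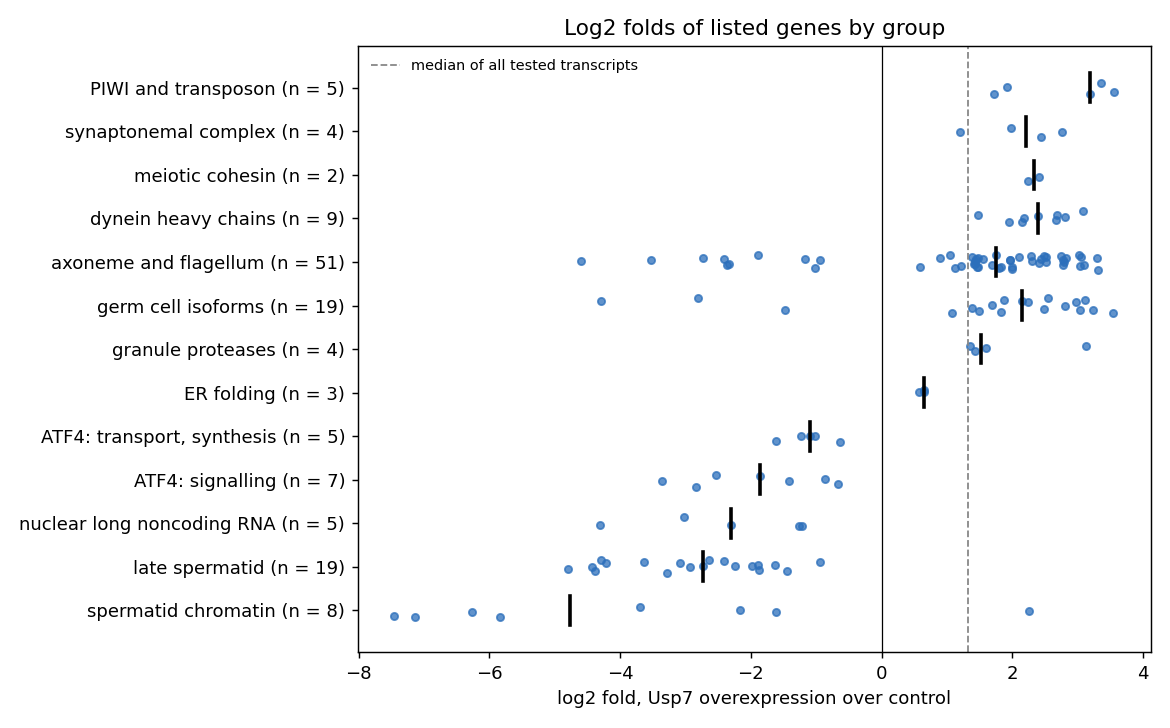
Log2 fold of each tested member (points) of 13 gene groups, overexpression over control, with the group median (black bar), zero (solid line) and the median of all tested transcripts (dashed line, 1.31). The meiotic, axonemal and isoform groups lie mainly to the right, and the ATF4, nuclear RNA, late spermatid and spermatid chromatin groups to the left. The late spermatid list was chosen after values had been seen, and the acrosome list, mainly higher, is not drawn.

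Genes regulated by ATF4 fell. ATF4 is a transcription factor made when translation is held back by amino acid shortage or by stress in the endoplasmic reticulum (ER), and it switches on amino acid transport, synthesis and its own feedback regulators. All 7 listed ATF4 signalling genes (of 22) were lower, with a median log2 fold of -1.87, beside 34.7% lower over all tested transcripts. Trib3, a pseudokinase that feeds back on ATF4, had 178, 170.5 and 223 normalized counts in the overexpression libraries, against 1392, 1313 and 1384 in the controls (-2.84 ± 0.15 SE, limma, BH-adjusted p = 1.7e-07). Chac1, which breaks down glutathione, had 50.1, 82.0 and 72.0 normalized counts in the overexpression libraries, against 727, 657 and 690.0 in the controls (-3.36 ± 0.19). Ddit4, an inhibitor of mTORC1, had 611, 796 and 794 normalized counts in the overexpression libraries, against 2742, 2725 and 2518 in the controls (-1.87 ± 0.15). Control libraries were close to each other for all 3 genes, and no overexpression library came near them. The groups also did not overlap for any of the 233 listed transcripts that were lower.

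Atf3, a stress transcription factor, had 4.55, 23.0 and 2.72 normalized counts in the overexpression libraries, against 50.3, 34.4 and 51.8 in the controls (-2.53 ± 0.58 SE). Overexpression replicate 2 was well above the other overexpression libraries, and the log2 fold was -3.33 without it, -1.99 without overexpression replicate 3 and -2.53 with all libraries. Jdp2 (-1.42 ± 0.27), Sesn2 (-0.87 ± 0.17) and Cebpg (-0.67 ± 0.13) fell less. On the transport and synthesis side all 5 listed genes (of 22) fell (34.7% lower over all tested transcripts), with a median of -1.10. They were the cystine transporter Slc7a11 (-1.61 ± 0.19), the alanine aminotransferase Gpt2 (-1.24 ± 0.14), the neutral amino acid transporter Slc1a4 (-1.10 ± 0.15), the glycine transporter Slc6a9 (-1.01 ± 0.26) and the asparagine synthetase Asns (-0.64 ± 0.14). The aminoacyl-tRNA synthetase genes Cars (-1.29 ± 0.29) and Iars (-0.73 ± 0.14) fell with them, out of 20 on their list.

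ER chaperone genes did not fall with these. Creld2 had 1244, 1079.8 and 1495 normalized counts in the overexpression libraries, against 852, 828 and 854 in the controls (0.58 ± 0.15 SE), and Dnajc3 (0.64 ± 0.17) and Dnajb11 (0.64 ± 0.16) were the other listed members of 25. All 3 were higher with the authors' scaling and lower, between -0.57 and -0.64, under median-of-ratios scaling. P4hb, a protein disulfide isomerase of the ER and 1 of the 5 transcripts with the highest mean, behaved alike (0.67 ± 0.15, and -0.55 under that scaling). The heat shock genes Hspa1a (-2.21 ± 0.33) and Hspa1b (-1.74 ± 0.26) fell, though they are near-identical copies and cannot be told apart with confidence. In both, overexpression replicate 2 was above the other overexpression libraries.

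The 3 listed p53 targets fell, of which Ddit4 and Sesn2 also answer to ATF4, beside 34.7% lower over all tested transcripts. The remaining one, Pmaip1, a death-promoting BCL2 relative, had 164, 130.1 and 167 normalized counts in the overexpression libraries, against 327, 356 and 297 in the controls (-1.09 ± 0.16 SE). Of 25 hypoxia and glycolysis genes, Ankrd37 (-2.18 ± 0.33), Mxi1 (-1.04 ± 0.20) and Ndrg1 (-0.93 ± 0.14) were listed and fell. Of 24 immediate early genes, 22 apoptosis genes and 32 interferon and inflammation genes, 0 were in the table.

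Nuclear long noncoding RNAs were lower. All 5 listed transcripts, 2 of them of Meg3, fell (median log2 fold -2.30), beside 34.7% lower over all tested transcripts. Malat1, an abundant RNA of nuclear speckles with the highest mean in the table, had 15048, 12659.8 and 10351 normalized counts in the overexpression libraries, against 27521, 29768 and 32958 in the controls (-1.26 ± 0.20 SE). Neat1, the scaffold of paraspeckles, had 198, 164 and 148 normalized counts in the overexpression libraries, against 373, 393 and 417 in the controls (-1.22 ± 0.16). Kcnq1ot1, which silences imprinted neighbours, had 83.9, 59.0 and 32.6 normalized counts in the overexpression libraries, against 242, 276 and 305 in the controls (-2.30 ± 0.29), and it is antisense to Kcnq1, with strand of the counting not given. Meg3, an imprinted RNA, was listed as 2 transcripts with log2 folds of -4.31 ± 0.60 and -3.02 ± 0.66. Without overexpression replicate 3 these were -3.61 and -2.07, and without overexpression replicate 1 that of the more abundant transcript was -5.12. Among the overexpression libraries, replicate 3 was the lowest and replicate 1 the highest for all 5 transcripts.

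Among the 15 lowest log2 folds at a mean of at least 100 were those of Sox4, Nes, Basp1 and Dpysl4, which are on no gene list used here. Sox4, a transcription factor of progenitors, had 643, 597 and 274 normalized counts in the overexpression libraries, against 1835, 2564 and 2001 in the controls (-2.16 ± 0.28 SE). Nes, an intermediate filament of neural progenitors, had 46.2, 63.4 and 38.0 normalized counts in the overexpression libraries, against 190.1, 193 and 215 in the controls (-2.03 ± 0.21), Basp1, a membrane protein of nerve endings, had 28.0, 51.4 and 35.3 normalized counts in the overexpression libraries, against 173, 224 and 189 in the controls (-2.36 ± 0.24), and Dpysl4, of the collapsin response family, had 22.1, 31.7 and 35.3 normalized counts in the overexpression libraries, against 198, 173 and 188 in the controls (-2.63 ± 0.22). None of 8 neural markers on the marker list was in the table. The 5 listed Zfp zinc finger genes fell, between -0.60 (Zfp940) and -2.45 (Zfp469), beside 34.7% lower over all tested transcripts. The matrix genes Col27a1 (-0.93 ± 0.14), Col9a2 (-1.59 ± 0.31) and Fbn2 (-1.08 ± 0.18) fell too.

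The 4 listed genes of granule proteins that kill target cells or digest proteins were higher (median log2 fold 1.51, beside 1.98 over the higher calls). The share higher over all tested transcripts was 65.3%, and family members outside the table were not counted. Gzmb, granzyme B of cytotoxic lymphocytes (chr14:56258836-56262334), had 1477, 1223 and 1379 normalized counts in the overexpression libraries, against 142, 167 and 156 in the controls (3.12 ± 0.15 SE, limma, BH-adjusted p = 6.4e-08). Prf1, the pore-forming protein delivered with it, had 108, 96.2 and 107 normalized counts in the overexpression libraries, against 39.2, 39.9 and 40.7 in the controls (1.35 ± 0.19). Mcpt8, a basophil protease, had 126, 118 and 139.8 normalized counts in the overexpression libraries, against 33.2, 49.9 and 61.0 in the controls (1.43 ± 0.24), and Ctsg, cathepsin G of neutrophils, had 181, 126 and 235 normalized counts in the overexpression libraries, against 65.4, 57.6 and 49.9 in the controls (1.59 ± 0.24). All 4 stayed above 0 under median-of-ratios scaling, but only Gzmb was called there.

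Of 23 other blood lineage genes, a list chosen after values had been seen, 12 were in the table and 11 tested, with 9 higher and 2 lower (median 0.88), beside 65.3% higher over all tested transcripts. Gata1, a transcription factor of red cells, mast cells and megakaryocytes that is also on a list of USP7 partners, had 235, 234 and 285 normalized counts in the overexpression libraries, against 122, 115 and 128 in the controls (1.04 ± 0.16 SE). Il2ra, the alpha chain of the interleukin-2 receptor, had 1039, 827 and 881 normalized counts in the overexpression libraries, against 404, 508 and 457 in the controls (1.00 ± 0.15), and Jaml, an adhesion protein of leukocytes, had 181, 156 and 174 normalized counts in the overexpression libraries, against 44.3, 64.3 and 48.1 in the controls (1.70 ± 0.20). Cd69, an early activation marker (-1.03 ± 0.22), and Rgs1 (-0.86 ± 0.15) fell. Under median-of-ratios scaling 10 of the 11 were below 0, Gata1 (-0.18) and Il2ra (-0.22) among them, and Jaml alone stayed above (0.49).

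Lists of other cell types were nearly empty in the table. Of 11 lymphocyte markers Prf1 and Gzmb were listed, summing to 1585, 1319 and 1487 in overexpression replicates 1 to 3, against 181, 207 and 197 in the controls. Of 7 theca and Leydig markers Cyp17a1, the androgen synthesis enzyme, was listed, with 109, 331 and 128 normalized counts in the overexpression libraries, against 548, 543 and 561 in the controls (-1.72 ± 0.33 SE). Of 11 fibroblast markers S100a4 was listed, with 1618, 1833 and 1815 normalized counts in the overexpression libraries, against 962, 1077 and 1176 in the controls (0.71 ± 0.14, and -0.51 under median-of-ratios scaling). Granulosa, smooth muscle, endothelial, macrophage, mast cell, erythroid, surface epithelium and Sertoli lists had 0 members there. The part that other cells play in any result was not tested, and fewer cells of a type cannot be told apart from less RNA per cell.

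Of 3 listed cyclins and cyclin kinase inhibitors, 2 were higher and 1 lower. Ccnd1, cyclin D1, had 3924, 3314 and 5222 normalized counts in the overexpression libraries, against 2320.0, 2510.1 and 2518 in the controls (0.74 ± 0.18 SE), and Ccne1, cyclin E1, had 640.1, 554 and 823 normalized counts in the overexpression libraries, against 406, 432 and 386 in the controls (0.70 ± 0.17). Cdkn1b, an inhibitor of cyclin kinases, fell, with 186, 249 and 196 normalized counts in the overexpression libraries, against 385, 305 and 326 in the controls (-0.69 ± 0.17). Of 22 oxidative stress genes 3 were listed, with Slc7a11 lower and the metallothioneins Mt1 and Mt2, which bind zinc and copper, higher. The metallothioneins had 5060.2, 5247 and 8158 and 3344, 3323 and 5769 in the overexpression libraries, against 3399, 3391 and 3535 and 1709, 1799.8 and 1730.4 in the controls. In Mt1, Mt2 and Ccnd1 overexpression replicate 3 was the highest library. Under median-of-ratios scaling both cyclins (-0.49 and -0.52), Mt1 (-0.42) and Mt2 (-0.03) went below 0. Of 23 mitosis genes and 24 replication and repair genes, 0 were in the table.

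Ubiquitin pathway genes were few. Of the ubiquitin ligase families 8 were in the table, 7 tested, with 4 higher and 3 lower. Trim12a and Trim80 had 0 reads in all 3 overexpression libraries, against 23.1, 19.9 and 26.8 and 17.1, 22.2 and 26.8 in the controls, at least 24.8-fold and 23.4-fold lower by the floor of 3 reads. Trim12a has close copies, Trim5 among them, that may share reads. Fbxl5, a ligase subunit that senses iron (1.11 ± 0.28 SE), rose, with 76.8, 149 and 77.4 normalized counts in the overexpression libraries, against 39.2, 42.1 and 51.8 in the controls, and was -0.10 under median-of-ratios scaling. No ubiquitin-specific protease was in the table. Kdm4d, a histone H3K9 demethylase of the testis, was the single listed methylation enzyme, with 64.4, 55.7 and 59.7 normalized counts in the overexpression libraries, against 16.1, 11.1 and 4.62 in the controls (2.53 ± 0.39).

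**Figure D3:**
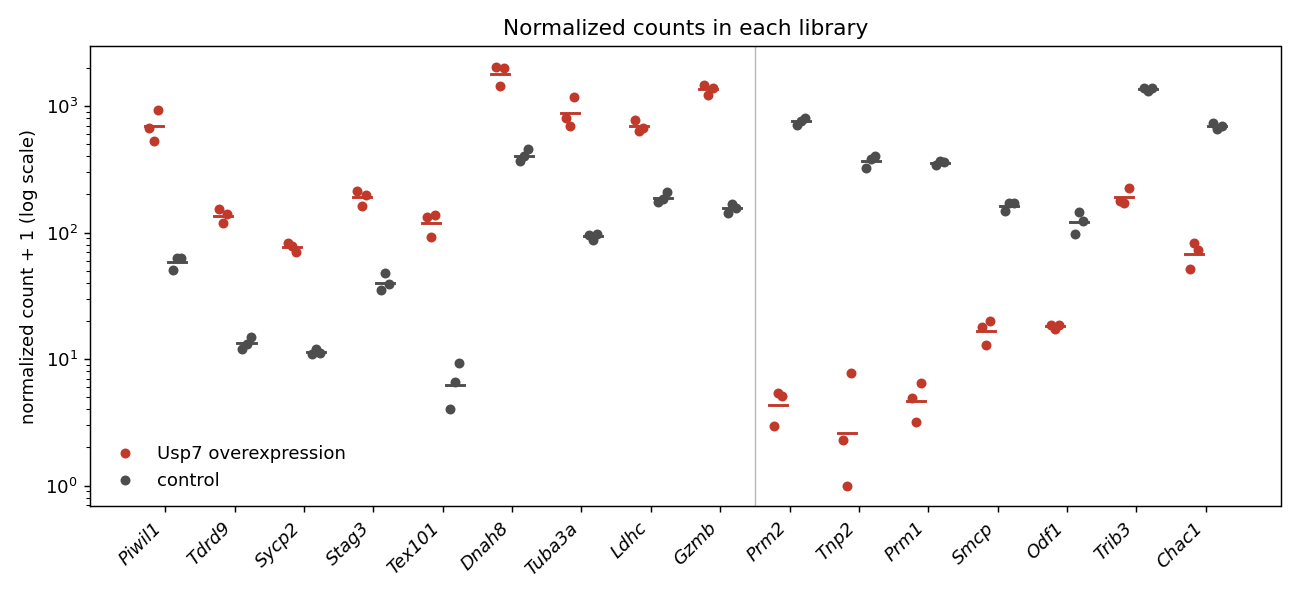
Normalized count + 1 (log axis) of 16 named genes in each overexpression library (red, left of each pair) and control library (grey, right), with the geometric mean as a bar. Left of the grey line are genes that were higher, right of it genes that were lower, and no pair of groups overlaps. The same held for 414 of 415 higher and 233 of 233 lower listed transcripts.

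The weakest members sat at the edge of the selection. In the authors' deposited table the smallest folds were 1.50 for Ift140, 1.51 for Creld2 and 1.51 for Hint1 among the higher, and 1.51 for Phf20l1 and Abca4 and 1.52 for Lbh among the lower. What lies below that edge was not analysed here. The authors' log2 folds and those computed here correlated at 0.991 across the 613 tested transcripts. These are not independent replicates and come from the same libraries. The 35 transcripts too low to test were left out.

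Among transcripts with a mean of at least 100, spread between overexpression replicates was largest in Tnp2, described above, Foxl2os, Rpl21, Pde8a and Cyp17a1. Between control replicates it was largest in Hdgfl1, Dnah1, Slc6a21, Spag17 and Bspry. Transcripts with lower means were not ranked. Rpl21, a ribosomal protein gene with many processed copies, had 136, 495 and 134 normalized counts in the overexpression libraries, against 628, 817 and 825 in the controls (-1.84 ± 0.41 SE). Pde8a, a cyclic AMP phosphodiesterase, had 196, 573 and 201 normalized counts in the overexpression libraries, against 109, 74.3 and 89.7 in the controls (1.64 ± 0.36). In both, and in Cyp17a1, overexpression replicate 2 stood above the other overexpression libraries. Foxl2os, antisense to the ovary gene Foxl2, had 90.4, 103 and 23.1 normalized counts in the overexpression libraries, against 206, 203 and 192 in the controls (-1.72 ± 0.44), and there overexpression replicate 3 was the low one. The log2 fold was -2.46 for Rpl21 without overexpression replicate 2 and -1.05 for Foxl2os without overexpression replicate 3.

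Some listed genes neighbour each other on a chromosome. Of 38 adjacent pairs among 583 protein-coding members with a position (382 higher and 201 lower), 31 moved the same way, which is given as a description, since most members share a direction and several pairs are close copies that may share reads. The longest run was Tnp2, Prm3, Prm2 and Prm1 (chr16:10787935-10796823), all lower. Hspa1b, Hspa1a and Hspa1l (chr17:34956429-34979228) were all lower too. Mcpt8 and Ctsg, side by side on chromosome 14, were both higher. The X chromosome held 2 of 382 higher genes (0.524%) and 3 of 201 lower genes (1.49%), beside 4.41% of 21883 genes in the annotation.

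The knockdown experiment had its own controls and its own scaling, so its values stand beside these without a joint test. Of 2902 transcripts tested there, 99.9% were called, 49.1% higher and 50.7% lower, again because the authors had selected them. Of the 400 transcripts higher in overexpression, 355 (88.8%) were in the knockdown table, where 318 were lower and 36 higher. Of the 213 lower in overexpression, 88 (41.3%) were there, 75 of them lower and 7 higher. The rest were too low to test there or not called. With libraries scaled to column totals, which lowers most knockdown folds, 318 and 17 of the first set and 77 and 1 of the second were called lower and higher. In knockdown control replicate 2, 143 of 3156 listed transcripts exceeded both remaining controls by more than 2 log2 units (0 in either of those), and the 4 counts were the same without it. Among transcripts with a mean of at least 100 in the overexpression table, those higher in overexpression were 63 lower and 31 higher in knockdown, and those lower in overexpression were 33 lower and 7 higher.

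By group, the 5 PIWI genes, 4 synaptonemal genes, 2 cohesin genes and 9 dynein heavy chains were all lower in knockdown, as were 46 of the 47 other axonemal genes found there, with the remaining 1 too low to test or not called. Of all transcripts higher in overexpression and called in knockdown, 89.8% were lower there, so these groups lie near the share of any such transcript. Piwil1 was -1.41 ± 0.14 in knockdown (log2 fold, SE, n = 3 per group), with 645, 796 and 926 normalized counts in the knockdown libraries and 2209.7, 1924 and 2115 in their controls. The overexpression experiment's own controls, at 49.3, 62.1 and 62.0, were far below these on the separate scale of their table. The same held for other transcripts. The median level of the 318 transcripts that rose with overexpression and fell in knockdown was 67.8 in overexpression, 14.7 in its controls, 68.8 in knockdown and 177 in the knockdown controls. Of these, 317 were higher in the knockdown controls than in the overexpression libraries, and 316 were higher in the knockdown libraries than in the overexpression controls. The tables were scaled separately, so these levels stand side by side without a test. Prm1, Prm2, Tnp1 and Tnp2 were not in the knockdown table. All 7 ATF4 signalling genes were lower in both experiments, with Trib3 at -4.61 ± 0.09 and Chac1 at -4.06 ± 0.12 in knockdown. Of all transcripts lower in overexpression and called in knockdown, 91.5% were lower there as well.

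Some genes went the same way upward. Gata1 was 1.24 ± 0.18 in knockdown (0.44 and not called with column totals), Il2ra 1.54 ± 0.11, Mt2 2.26 ± 0.15 and Ccne1 1.87 ± 0.11 (log2 fold, SE). The granule genes parted: Gzmb was higher in both (0.89 in knockdown, and 0.08 and not called with column totals), with 2466, 2442 and 2598 normalized counts in the knockdown libraries and 1489, 1250.3 and 1315 in their controls. Ctsg was higher in overexpression and lower in knockdown (-4.19 ± 0.30), with 16.6, 19.5 and 43.0 in the knockdown libraries and 458, 474 and 437 in their controls. At a mean of at least 100 in both tables, the 5 strongest opposite changes, ranked by the smaller of both absolute log2 folds, were those of Ctsg and, ahead of it, Mroh2a (3.06 in overexpression and -1.69 in knockdown), the fructose transporter Slc2a5 (1.82 and -1.62), Cfap65 (3.31 and -1.62) and Hdgfl1 (3.11 and -1.60).

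**Figure D4:**
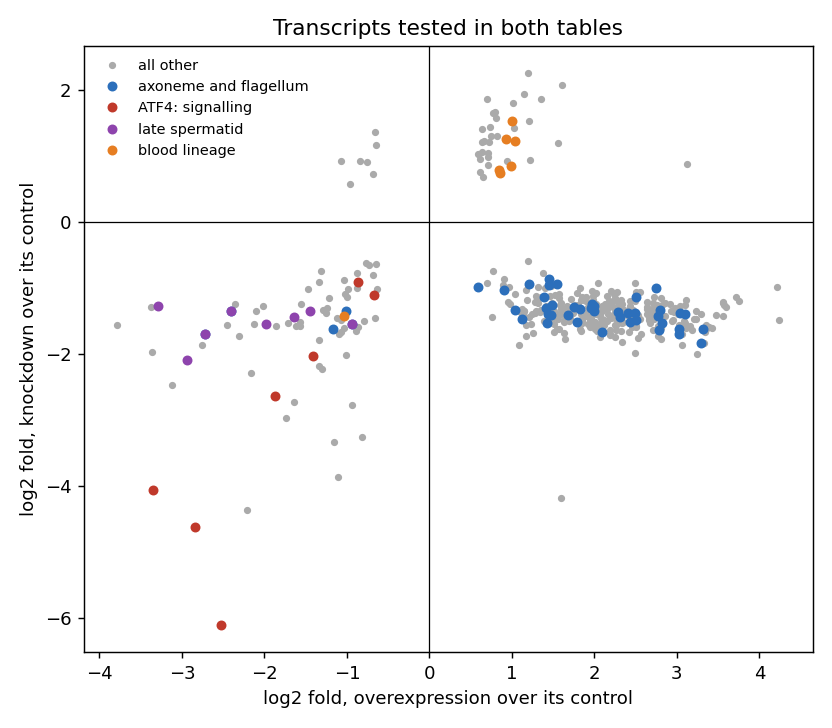
Log2 fold in knockdown over its control (vertical) against log2 fold in overexpression over its control (horizontal) for transcripts tested in both tables, with 4 gene groups in colour. Most points that are higher in overexpression lie near -1.35 in knockdown, the ATF4 signalling genes lie at the lower left, and a few blood lineage genes at the upper right.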

How the data were processed

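Per the labels, Trizol RNA went into Illumina TruSeq RNA libraries. Bowtie 0.12.2 and the builds mm10 and GRCm38 appear in the submitters' processing notes; neither the counter, nor its use of strand, nor the test behind the selection is given in the sources used here. For each construct there is 1 deposited table, holding only transcripts they selected. Library columns are a signal, normalized counts, made by the authors with 1 size factor per library: in each column all values were whole multiples of the same step (100%, within 0.001 of a read). Further deposited columns hold a log2 fold with its error, a test score, a p-value and an adjusted p. Recovered size factors were 1.54, 0.915 and 0.737 for overexpression and 0.994, 0.902 and 1.08 for its controls. Other per-sample columns numbered 0.

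Folds and tests were computed with limma 3.58.1 (R 4.3.3, variance trend) on log2(normalized count + 1), within each table. The count test planned for the tables was replaced because the values are normalized, and reads were used for a count test only where at least 100 values of up to 20 reads showed the step and it lay clear of 1. Overexpression replicate 1 (94 such values) and its control replicate 1 (a step of 1.01) did not meet this. Therefore edgeR 4.0.16, an alternative added after seeing the data, was run on the knockdown reads only. A value of 0 was given a floor of 3 reads over the group, which covers counting error only. Alternatives covered the pseudocount, the filter, the scaling, each library left out and the replicate number as a block.

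The members, gene lists and tests were chosen with earlier results of these data known, and 3 lists (late spermatid, acrosome, blood lineage) after values were seen. Named genes were the 15 highest and 15 lowest log2 folds at a mean of at least 100 with no overlap of libraries and no predicted or clone name. Added to these were list members, the 5 highest means, the 3 smallest authors' folds per direction, the 5 most variable genes per group, runs of at least 3 neighbours, and the 5 strongest opposite and same changes in knockdown. Not every gene the rule takes is described, and 1 gene is not reported here. Symbols matched RefSeq (GRCm38.p6) for 643 of 648 transcripts; 1 symbol had been turned into a date and is Marchf10 by its accession. The last bases of each printed promoter were found in a GENCODE transcript of its gene.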

Additional observations from a re-analysis of the deposited data

How the results depend on the processing

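Direction and call of 143 named overexpression folds were the same with a pseudocount of 0.5 or 5, without the filter, with column totals, with the replicate block and without any 1 library. The counts of transcripts called higher and lower were 400 and 213 in these settings, except 415 and 233 without the filter and 399 and 215 with column totals. Median-of-ratios scaling called 197 higher and 257 lower, lost the call of 15 named folds and turned 17 below 0: Creld2 -0.64, Ift140 -0.64, Hint1 -0.63, Dnajc3 -0.58, Dnajb11 -0.57, P4hb -0.55, Ccne1 -0.52, S100a4 -0.51, Ccnd1 -0.49, Hyal2 -0.47, Mt1 -0.42, Il2ra -0.22, Gata1 -0.18, Gykl1 -0.11, Fbxl5 -0.10, Mt2 -0.026 and Ccdc40 -0.0089. It centres the folds by construction, with a median shift of -1.19 and shifts between -1.22 and -0.54. With each library left out in turn, the overexpression counts stayed at 400 and 213, with the tested transcripts held to those of the main fit. All transcripts had been selected by the authors as changed on these same libraries. Stable calls in these settings were thus largely settled beforehand and are no independent evidence, in overexpression and in knockdown alike. Replicate numbers showed no sign of pairing among the tested transcripts. Same-numbered libraries correlated in their deviations at -0.04, -0.11 and 0.05 in overexpression and -0.07, -0.02 and -0.10 in knockdown. These transcripts were selected for a difference between groups, so the values cannot exclude pairing. With the replicate block the counts were 400 and 213, and 318, 36, 75 and 7 for the knockdown sets below. In knockdown, transcripts higher in overexpression were 318 lower and 36 higher, and those lower in overexpression 75 lower and 7 higher. Leaving out each knockdown library gave 317 to 318, 36, 74 to 75 and 6 to 7, edgeR on recovered reads gave the same 4 counts, and column totals gave 318, 17, 77 and 1, with Gata1 and Gzmb no longer called. Transcripts with few reads limit precision, since 35 of 648 fell under the filter and 25 had 0 reads in every library of a group.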
